A study of Arabidopsis thaliana with 3 samples.

Results

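The genes described here lie in a copy of the mitochondrial genome that is inserted into chromosome 2 of Arabidopsis thaliana. They were taken by identifier, as every gene from AT2G07660 to AT2G07840 listed in any of the deposited tables, and not by any measured value. The rule gave 64 of 26810 listed genes. Of these 64, the tables of RNA-seq replicates 1 and 2 and of GMUCT listed 62, 60 and 63. A gene that a table did not list was taken as 0. The annotation of the same identifier range holds 71 protein-coding genes, of which 64 were listed, and 58 pseudogenes, of which 0 were listed.

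RNA was sequenced from buds of immature inflorescences of dcl1-7 plants, which were untreated and about 4 weeks old and had grown under 16 h of light and 8 h of dark. The mutant dcl1-7 carries a weak allele of DICER-LIKE1, the enzyme that cuts most plant microRNAs from their precursors. It was shared by all 3 libraries, so there was no wild-type group and no comparison of genotypes. polyA RNA-seq was done in 2 libraries, which measure mRNA with a poly(A) tail, and GMUCT in 1 library, which maps polyadenylated RNAs with an uncapped 5′ end carrying a monophosphate. Reads were strand-specific and 50 nt long, and values are in RPKM, reads scaled to gene length and sequencing depth.

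Plant mitochondria keep a small genome with genes for subunits of respiratory complexes I, III and IV, of the ATP synthase, of the mitochondrial ribosome and of the machinery that attaches heme to c-type cytochromes. Most subunits of these complexes are encoded in the nucleus and imported. Mitochondrial transcripts carry no cap, and in plant mitochondria a poly(A) tail is known as a mark for RNA decay. Chromosome 2 of the Columbia accession is known for a large, recent copy of that genome near its centromere, and its genes are named in the nuclear annotation.

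Reads of these genes may come from the mitochondrial genome itself. Of the 64 genes, 60 matched the mitochondrial genome with at least 95% identity over at least 50% of their exon length, and in these 60 the match covered at least 99.1% of it. In 56 of the 60 it covered all of it, and in 39 the best match held no mismatch. Every stretch of 50 nt, the read length, that lay within an exon block was looked up in the mitochondrial genome. Stretches that cross a join of exon blocks were not looked up. In 34 genes all stretches looked up were found there, and in the gene with the fewest 83.8% were found. A read from such a stretch cannot be told apart from a mitochondrial read. How the authors placed reads that fit several places is not given in the sources used here. Of the listed identifiers 0 were of an organelle genome, so levels of the mitochondrial genes themselves could not be analysed. In what follows a level is that of the identifier, whichever copy the RNA came from.

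The sequence below is the start of AT2G07751, the gene on which the highest value turned, with its first codon in capitals. It is a copy of nad3, a membrane subunit of complex I. All of its 357 nt occur once, without a difference, in the mitochondrial genome.
AT2G07751, bases 1 to 120: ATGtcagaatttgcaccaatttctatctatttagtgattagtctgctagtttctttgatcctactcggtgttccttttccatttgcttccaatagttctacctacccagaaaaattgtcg

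AT2G07675, a copy of rps12 for a protein of the small mitochondrial ribosomal subunit, starts 45 nt after the end of AT2G07751. The order of nad3 and rps12 is the mitochondrial one, and in many plants they are transcribed together. The whole 780 nt from the start of the nad3 copy to the end of the rps12 copy also occur once in the mitochondrial genome, while the gap and the junction printed here occur there 2 times. The junction is shown with the last 60 nt of the nad3 copy, the gap of 45 nt in capitals and the first 60 nt of the rps12 copy.
Junction of AT2G07751 and AT2G07675: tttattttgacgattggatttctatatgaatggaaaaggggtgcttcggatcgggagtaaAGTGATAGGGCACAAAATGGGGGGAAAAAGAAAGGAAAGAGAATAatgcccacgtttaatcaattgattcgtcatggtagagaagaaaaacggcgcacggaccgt

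Few bases set the nuclear and mitochondrial copies apart in the other 26 genes. AT2G07722, an uncharacterized gene of 420 nt, had 1 difference, shown in capitals in bases 26 to 86, so that only reads over this base could be assigned. Of its stretches of 50 nt, 86.5% were in the mitochondrial genome.
AT2G07722, nuclear: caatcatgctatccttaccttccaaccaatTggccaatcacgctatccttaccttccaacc
AT2G07722, mitochondrial: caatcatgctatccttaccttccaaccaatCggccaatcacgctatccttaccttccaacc

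AT2G07732 holds part of rbcL, the plastid gene of the large subunit of Rubisco, which the mitochondrial genome had taken up before the insertion. It had 2 differences from the mitochondrial genome over 740 nt and 13 from the plastid genome over the 568 nt that aligned. Bases 280 to 359 are shown, with the bases that differ from the nuclear copy in capitals.
AT2G07732, nuclear: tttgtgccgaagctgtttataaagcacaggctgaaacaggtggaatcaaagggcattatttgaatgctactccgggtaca
AT2G07732, mitochondrial: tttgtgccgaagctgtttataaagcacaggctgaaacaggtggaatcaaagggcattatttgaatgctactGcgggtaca
AT2G07732, plastid: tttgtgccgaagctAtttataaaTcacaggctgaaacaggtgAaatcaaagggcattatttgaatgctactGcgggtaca
All sequences are from the RefSeq TAIR10.1 assembly and run 5′ to 3′ on the strand of the gene.

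The 60 matching genes were short and mostly without introns. A single exon block made up 42 of them (70%), against 20.5% of all listed genes with an annotation, and the median exon length was 835.5 nt against 1589 nt. The median GC content was 44.8% against 41.1%. Exons of 18 of the 60 lay in a named mitochondrial gene, and all 18 lay in its sense direction. The product of 34 of the 60 was an uncharacterized protein. They lay within 262 kb of the start of the first member, and the 4 genes without a match lay 274 to 344 kb from it.

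Levels in RNA-seq were low and levels in GMUCT were not. The median over the 64 genes was 1.13 and 1.58 RPKM in RNA-seq replicates 1 and 2 and 5.18 RPKM in GMUCT, while the medians over all listed genes were 4.83, 4.78 and 4.51 RPKM. GMUCT lay above both RNA-seq libraries in 54 of the 64 genes and below both in 8, where 54.6% and 39.7% of all listed genes did so. Among the 35 members with an RNA-seq mean of at least 1 RPKM it lay above both in 28 and below both in 7, against 39.6% and 55.2% of all such genes.

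The difference was tested with limma on log2(RPKM + 0.5), on all 20214 genes whose mean over the assays was at least 1 RPKM. This test had 1 residual degree of freedom and took the lone GMUCT library to vary like the RNA-seq libraries. The labels do not state separate plants for the RNA-seq libraries, and the p-values therefore rest on the spread of these samples alone, which may be technical. Of the 64 genes 52 were tested and 12 did not pass the filter, and 41 were called higher in GMUCT, 3 lower and 8 neither, at an adjusted p under 0.05. Over all tested genes, 32.1% were called higher and 36.9% lower. The median log2 ratio was 1.78 over the 52 genes and -0.07 over all tested genes.

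The filter let 19 of the 52 genes in through their GMUCT value, with an RNA-seq mean below 1 RPKM, and of all tested genes of that kind 89.5% were called higher. With the filter set on the RNA-seq mean alone, which was chosen after seeing the data, 35 members were tested by limma, and 27 were called higher and 5 lower. In that fit 30.4% of all genes were called higher and 44.0% lower, and the median log2 ratio was 1.51 over the members and -0.21 over all genes. By size alone, without a test, the GMUCT level exceeded each RNA-seq level at least 2-fold in 40 of the 52 genes and was at least 2-fold below each in 3. Over all tested genes these shares were 19.9% and 17.3%. The 40 are counted over a set that holds the 19 genes let in through GMUCT. With the filter on the RNA-seq mean alone, 22 of 35 members were at least 2-fold higher by this rule and 3 lower. The share of all genes under that filter is not given here. The log2 ratio fell with exon length, with a Spearman's rho of -0.31 over the 20072 tested genes with an annotation and of -0.11 over the 51 matching members, in each case across genes of the same libraries. With the trend with gene length removed, the median log2 ratio over the 52 members was 1.25. Beyond that fit, the part of length in the ratios of the members was not tested.

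**Figure D1:**
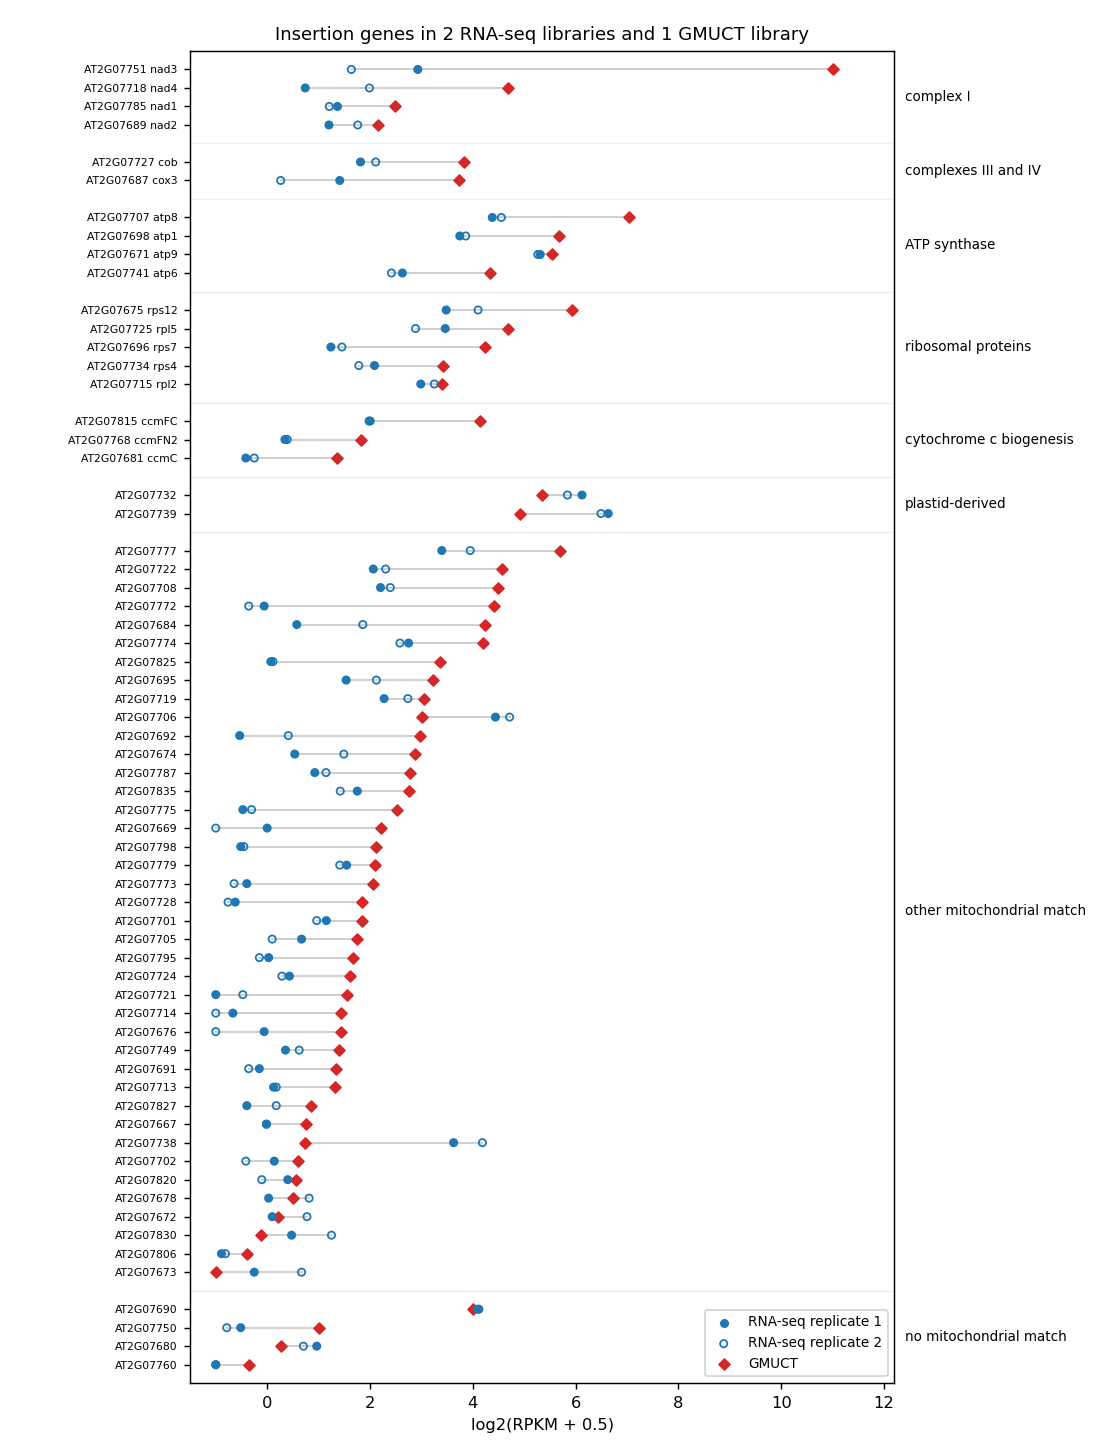
Level of each of the 64 insertion genes in log2(RPKM + 0.5) on the x axis, with RNA-seq replicate 1 as filled circles, replicate 2 as open circles and GMUCT as diamonds, and genes grouped by product and by their match to the mitochondrial genome. GMUCT lies above both RNA-seq libraries in 54 genes, and AT2G07751 stands apart at 2044 RPKM.

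Copies of genes for complex I, which oxidises NADH at the start of the respiratory chain, ran from the widest gap between the assays to one that was not called. The nad3 copy AT2G07751 had 7.12 and 2.61 RPKM in the RNA-seq libraries against 2044 RPKM in GMUCT, the 17th highest value of that library. RNA-seq replicate 1 was higher than replicate 2, and GMUCT was far above both. These values stand for about 45.9, 7.99 and 13990.3 reads. The log2 ratio was 8.71 (SE 0.71, limma adjusted p = 0.0087), the highest of all 20214 tested genes.

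The nad4 copy AT2G07718, annotated as a cytochrome b/b6 protein but holding 1457 nt of the gene for another membrane subunit, had 1.17 and 3.47 RPKM in the RNA-seq libraries against 25.2 RPKM in GMUCT. GMUCT was again above both, and here replicate 2 was the higher RNA-seq library (log2 ratio 3.32, SE 0.69, limma adjusted p = 0.040). AT2G07785, which holds 385 nt of nad1, had 2.08, 1.81 and 5.10 RPKM in RNA-seq 1, RNA-seq 2 and GMUCT (log2 ratio 1.20, limma adjusted p = 0.013). AT2G07689, which holds 645 nt of nad2, had 1.80, 2.89 and 3.97 RPKM. Its groups did not overlap, but its log2 ratio of 0.68 was not called (limma adjusted p = 0.17).

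Downstream in the chain, both copies had their highest value in GMUCT. AT2G07727, a copy of cob for cytochrome b of complex III, had 3.02 and 3.82 RPKM in the RNA-seq libraries against 13.6 RPKM in GMUCT (log2 ratio 1.86, limma adjusted p = 0.012). AT2G07687, which holds cox3 for a core subunit of complex IV and part of sdh4, had 2.16 and 0.70 RPKM in the RNA-seq libraries against 12.9 RPKM in GMUCT. The RNA-seq libraries differed about as widely as for nad3, and the log2 ratio was 2.90 (SE 0.64, limma adjusted p = 0.044).

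Copies for the ATP synthase, which turns the proton gradient into ATP, included the highest RNA-seq levels among copies of named mitochondrial genes. AT2G07707, a copy of atp8 for a membrane subunit, had 20.3 and 23.0 RPKM in the RNA-seq libraries against 131.3 RPKM in GMUCT (log2 ratio 2.58, SE 0.11, limma adjusted p = 0.0051). AT2G07698, with atp1 for the catalytic head's alpha subunit, had 12.9, 14.1 and 50.8 RPKM (log2 ratio 1.88, limma adjusted p = 0.0052). AT2G07741, with atp6 for the proton channel, had 5.69, 4.84 and 19.7 RPKM (log2 ratio 1.81, limma adjusted p = 0.0083), though 91.0% of its 50-nt stretches also occur elsewhere in the nuclear genome. In all 3 genes the RNA-seq libraries lay close together and GMUCT was well above them.

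AT2G07671 was an exception in size. It holds 225 nt of atp9, the subunit of the rotating ring, in an exon length of 776 nt, and had 39.2 and 38.0 RPKM in the RNA-seq libraries against 46.0 RPKM in GMUCT. Its log2 ratio was 0.25 (SE 0.05, limma adjusted p = 0.037), it was not called by limma without a trend (adjusted p = 0.072), and with the trend with gene length removed it was called lower (log2 ratio -0.50, adjusted p = 0.011). AT2G07777, annotated as an ATP synthase subunit 9 but with no exon in a named mitochondrial gene, had 10.03, 14.95 and 51.5 RPKM (log2 ratio 2.03, limma adjusted p = 0.022).

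Of the 5 copies of ribosomal protein genes limma called 4 higher in GMUCT, against 32.1% of all tested genes. The rps12 copy AT2G07675 had 10.7 and 16.7 RPKM in the RNA-seq libraries against 60.6 RPKM in GMUCT (log2 ratio 2.14, limma adjusted p = 0.025). Per length, the adjoining nad3 copy had 0.667 and 0.157 times its level in RNA-seq and 33.8 times its level in GMUCT, so the order of the neighbours was the opposite in the assays. AT2G07696, with rps7 of the small subunit, had 1.86, 2.24 and 18.4 RPKM (log2 ratio 2.90, limma adjusted p = 0.0058). AT2G07725, with rpl5 of the large subunit and 99 nt of rps14, had 10.5, 6.89 and 25.3 RPKM (log2 ratio 1.51, limma adjusted p = 0.041).

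AT2G07734, with rps4 of the small subunit, had 3.75 and 2.94 RPKM in the RNA-seq libraries against 10.3 RPKM in GMUCT (log2 ratio 1.49, limma adjusted p = 0.017). AT2G07715, which holds exons of rpl2 of the large subunit, had 7.43, 9.02 and 10.04 RPKM, and its log2 ratio of 0.28 was not called (limma adjusted p = 0.24). GMUCT lay above both RNA-seq libraries in all 5 genes, by little in the last.

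The 3 copies of genes for cytochrome c biogenesis, whose products carry and attach heme, were all called higher. AT2G07815, with part of ccmFC, had 3.45 and 3.51 RPKM in the RNA-seq libraries against 17.02 RPKM in GMUCT (log2 ratio 2.14, limma adjusted p = 0.0052). AT2G07768, with ccmFN2, had 0.77, 0.81 and 3.02 RPKM, and AT2G07681, with ccmC, had 0.25, 0.34 and 2.05 RPKM, with 85.7% of its 50-nt stretches found elsewhere in the nuclear genome too. Both of these were among the genes tested through their GMUCT value. Over the 18 copies of named mitochondrial genes GMUCT lay above both RNA-seq libraries in 18, against 54.6% of all listed genes. Limma called 16 of them higher and 0 lower, against 32.1% and 36.9% of all tested genes.

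The plastid-derived genes went the other way. AT2G07739, a fragment of the plastid gene ycf1, which encodes an envelope membrane protein of the plastid, had 98.8 and 89.6 RPKM in the RNA-seq libraries against 29.6 RPKM in GMUCT. It had the highest RNA-seq level of the 64 genes, and its log2 ratio was -1.65 (SE 0.09, limma adjusted p = 0.0059). The rbcL fragment AT2G07732, the second highest in RNA-seq, had 69.2 and 56.8 RPKM there against 40.4 RPKM in GMUCT. GMUCT lay below both, but the log2 ratio of -0.63 was not called (SE 0.16, limma adjusted p = 0.058). It was called lower with the libraries centred (adjusted p = 0.0062), with the filter at 5 RPKM (adjusted p = 0.020), with the length trend removed (adjusted p = 0.012) and with the filter on the RNA-seq mean alone (adjusted p = 0.0037). The plastid genome held 35.5% of the 50-nt stretches of AT2G07739 and 20.1% of those of AT2G07732, and the mitochondrial genome held 100% and 85.5%.

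Lower values were also found in uncharacterized genes. AT2G07738 had 11.9 and 17.7 RPKM in the RNA-seq libraries against 1.16 RPKM in GMUCT, and its ratio of -3.18 on the log2 scale (SE 0.32, limma adjusted p = 0.012) was the lowest of the members. AT2G07706 had 21.2, 25.8 and 7.56 RPKM (log2 ratio -1.57, SE 0.16, limma adjusted p = 0.012). All of their 50-nt stretches within an exon block occur in the mitochondrial genome too. AT2G07706 has 13 exon blocks, and stretches across their joins were not looked up.

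The remaining uncharacterized genes were mostly higher in GMUCT. AT2G07772 went from 0.46 and 0.28 RPKM in RNA-seq to 20.8 RPKM in GMUCT, the second highest log2 ratio of the members (4.62, SE 0.18). With an RNA-seq mean of 0.37 RPKM it was tested only through its GMUCT value. AT2G07722, shown above, had 3.68 and 4.44 RPKM in the RNA-seq libraries against 23.2 RPKM in GMUCT (log2 ratio 2.38, limma adjusted p = 0.0069). AT2G07708 had 4.11, 4.76 and 21.9 RPKM (log2 ratio 2.18, limma adjusted p = 0.0064). These genes had no value of GMUCT near those of RNA-seq.

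AT2G07774 had 6.23 and 5.49 RPKM in the RNA-seq libraries against 17.7 RPKM in GMUCT (log2 ratio 1.52, limma adjusted p = 0.0085). AT2G07825 had 0.55, 0.58 and 9.74 RPKM (3.27), AT2G07787 had 1.4, 1.71 and 6.36 RPKM (1.74) and AT2G07835 had 2.87, 2.18 and 6.30 RPKM (1.18). AT2G07775 had 0.22, 0.31 and 5.26 RPKM (2.92) and AT2G07692 had 0.19, 0.83 and 7.36 RPKM (3.04). All of these were called higher by limma, and AT2G07825, AT2G07775 and AT2G07692 were tested through their GMUCT value.

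AT2G07684, the shortest gene at 111 nt, had 0.99 and 3.13 RPKM in the RNA-seq libraries against 18.2 RPKM in GMUCT, which stand for about 1.98, 2.98 and 38.8 reads (log2 ratio 3.01, SE 0.71, limma adjusted p = 0.0498). Its call was lost without the filter, with a pseudocount of 0.1, with the length trend removed and without a trend in limma (adjusted p between 0.055 and 0.47). AT2G07695, annotated as a fragment of cytochrome c oxidase subunit II, had 2.4, 3.86 and 8.90 RPKM and was not called (log2 ratio 1.4, limma adjusted p = 0.052). AT2G07674 had 0.95, 2.31 and 6.85 RPKM (1.86, limma adjusted p = 0.070) and AT2G07719 had 4.34, 6.16 and 7.83 RPKM (0.55, limma adjusted p = 0.18), neither called. In each of these GMUCT was the highest library.

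Of the 40 matching genes outside the named groups, GMUCT lay above both RNA-seq libraries in 34, below both in 4 and between them in 2. Of the 31 tested, 17 passed the filter through their GMUCT value, where 89.5% of all such genes were called higher. Limma called 25 of the 31 higher and 2 lower, against 32.1% and 36.9% of all tested genes. AT2G07749, annotated as a polymerase of a mitovirus, a kind of RNA element of mitochondria, had 0.78, 1.04 and 2.12 RPKM (log2 ratio 0.90) and was also tested through its GMUCT value. AT2G07673 had 0.34 and 1.09 RPKM in RNA-seq and was not listed in GMUCT, and AT2G07830 had 0.89, 1.88 and 0.42 RPKM. Neither passed the filter.

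Several calls depended on how the test was set up. Without the filter on low values, which raises the number of genes tested, 14 of the 41 higher calls were lost (limma adjusted p between 0.053 and 0.12). They were AT2G07669, AT2G07675, AT2G07684, AT2G07687, AT2G07692, AT2G07701, AT2G07705, AT2G07718, AT2G07721, AT2G07725, AT2G07749, AT2G07777, AT2G07779 and AT2G07835. A pseudocount of 0.1 ended 7 of these 14. Removing the trend with gene length ended 13 of the 41. Of these, 9 kept a positive ratio without a call, namely AT2G07669, AT2G07675, AT2G07684, AT2G07687, AT2G07724, AT2G07725, AT2G07768, AT2G07779 and AT2G07835 (limma adjusted p between 0.057 and 0.47). The other 4, AT2G07671, AT2G07701, AT2G07705 and AT2G07713, turned negative, and AT2G07671 and AT2G07701 were then called lower (limma adjusted p = 0.011 and 0.029). Centring the libraries on their medians raised every log2 ratio by 0.13, and AT2G07674, AT2G07676, AT2G07689, AT2G07695, AT2G07715 and AT2G07719 were then called higher (limma adjusted p between 0.0012 and 0.043).

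**Figure D2:**
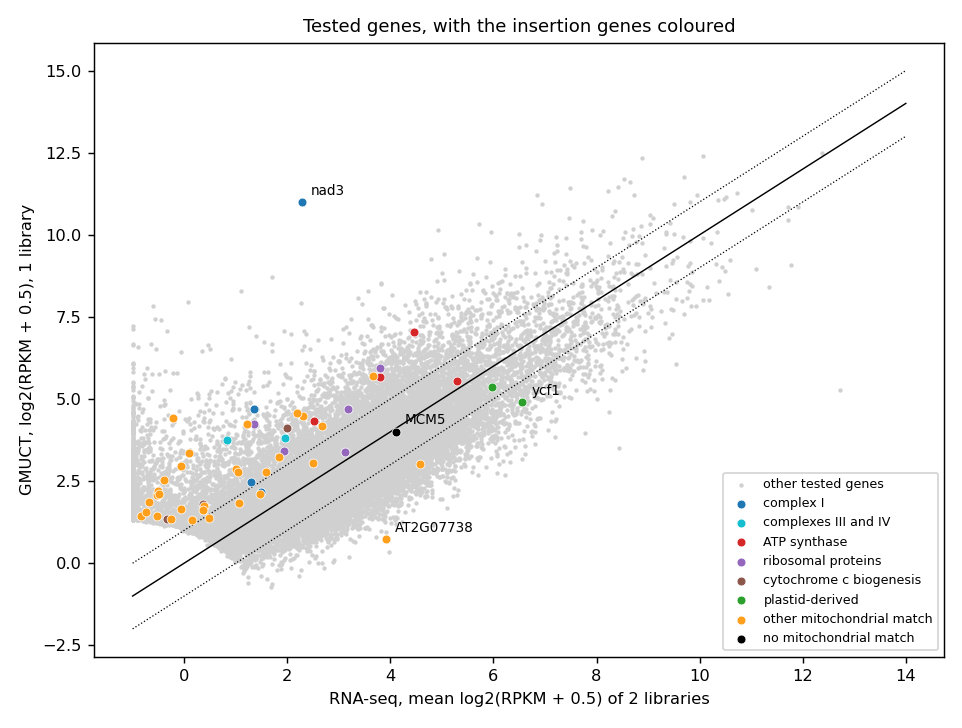
GMUCT level against the mean RNA-seq level, both in log2(RPKM + 0.5), with tested insertion genes in colour by group, other tested genes in grey, a solid line at equal values and dotted lines at 2-fold. Of the 52 tested insertion genes 40 exceed each RNA-seq library at least 2-fold in GMUCT, and 19 of the 52 passed the filter through their GMUCT value. In GMUCT ycf1 at 29.6 RPKM and AT2G07738 at 1.16 RPKM lie below the lines.

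Of the 4 genes of the identifier range without a mitochondrial match, GMUCT lay above both RNA-seq libraries in 2 and below both in 2. AT2G07690, for the replicative helicase subunit MCM5, had 16.9 and 16.6 RPKM in the RNA-seq libraries against 15.6 RPKM in GMUCT, with a log2 ratio of -0.10, or 0.02 with the libraries centred, that was not called (SE 0.06, limma adjusted p = 0.23). AT2G07680, for an ABC transporter of the multidrug resistance type, had 1.45, 1.13 and 0.70 RPKM. AT2G07750, for an RNA helicase, had 0.20, 0.08 and 1.52 RPKM, and AT2G07760, for a zinc knuckle protein, was listed only in GMUCT, at 0.28 RPKM. Of these only AT2G07690 passed the filter, so the difference between matching and other members was not tested.

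**Figure D3:**
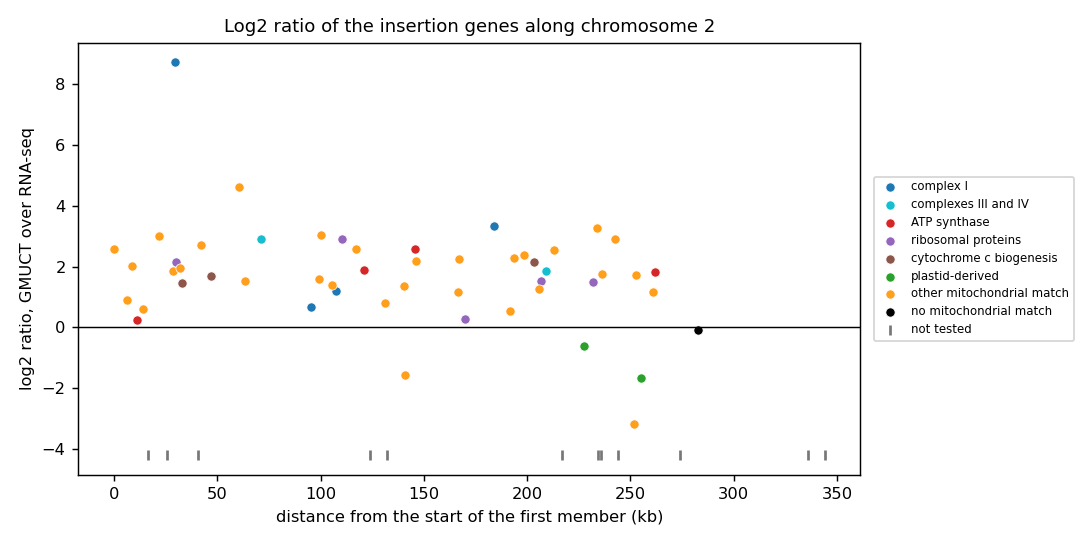
Log2 ratio of GMUCT over RNA-seq on the y axis against the distance in kb from the start of the first member, with tested genes in colour by group and untested ones as ticks. Ratios above 0 run along the whole stretch, the 4 members below 0 within the match lie at 141, 228, 252 and 255 kb, and the nad3 copy at 29.5 kb has a ratio of 8.71.

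The listed genes just outside the range were AT2G07640, a gene of the NAD(P)-binding Rossmann-fold family, with 9.79, 5.97 and 29.6 RPKM (log2 ratio 1.88, limma adjusted p = 0.036), and AT2G07981 with 0.42, 0.29 and 0.13 RPKM. Of the 30 listed genes before the range 15 were tested, with 5 called higher and 8 lower. Of the 30 after it 11 were tested, with 5 higher and 3 lower. Over all tested genes 32.1% were called higher and 36.9% lower. In each of the 2 sets 4 tested genes had an RNA-seq mean below 1 RPKM. Before any filter, GMUCT lay above both RNA-seq libraries in 21 of the 30 before (70%) and 24 of the 30 after (80%). The share was 84.4% over the members and 54.6% over all listed genes. AT2G07599, which is among the 30 before the range and was called higher, matched the mitochondrial genome over its whole exon length. It had 0.29, 0.62 and 4.42 RPKM (log2 ratio 2.39), so that it too passed the filter only through GMUCT. It shares 163 nt of exon with AT2G07696 on the same strand, where reads of the pair cannot be told apart. Outside the range 2 other genes had such a match. AT1G65346 had 0.19, 0.13 and 0.61 RPKM. AT5G06043, with 73.2% of its length matched, had 33.1 and 34.2 RPKM in the RNA-seq libraries against 2.69 RPKM in GMUCT (ratio -3.42 on the log2 scale, SE 0.06, limma adjusted p = 0.0031), and 7.5% of its 50-nt stretches were in the mitochondrial genome.

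Nuclear genes for the same respiratory complexes and related mitochondrial functions were mostly lower in GMUCT. In a list of 46 such genes GMUCT lay below both RNA-seq libraries in 38 and above both in 7. All 46 had an RNA-seq mean of at least 2.32 RPKM. Of all genes with a mean of at least 1 RPKM, 55.2% lay below both and 39.6% above both. Limma called 30 of the 46 lower, 4 higher and 12 neither, with a median log2 ratio of -0.87, where 36.9% of all tested genes were called lower and 32.1% higher. EMB1467, for the large subunit of the complex I arm that takes electrons from NADH, had 114.4 and 117.3 RPKM in the RNA-seq libraries against 21.1 RPKM in GMUCT (log2 ratio -2.43, limma adjusted p = 0.0034). COX6B of complex IV had 32.5, 33.4 and 5.19 RPKM (-2.56, limma adjusted p = 0.0038), and AT5G08670, for the beta subunit of the ATP synthase, had 132.0, 127.3 and 34.8 RPKM (-1.88, limma adjusted p = 0.0043).

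Over all tested genes 32.1% were called higher and 36.9% lower. Within complex I, 10 of the 13 nuclear-encoded subunits were called lower and 0 higher, while 3 of the 4 insertion copies were called higher. For the ATP synthase, 5 of 8 nuclear-encoded subunits were lower and 1 higher, against 4 higher of 4 copies. For complexes III and IV, 6 of 7 and 6 of 8 nuclear-encoded genes of the list, COX17 included, were lower and 1 of each higher, against 2 higher of 2 copies. AT1G68990, a phage-type RNA polymerase of mitochondria, was the exception in size among the 46, with 7.55 and 7.72 RPKM in the RNA-seq libraries against 53.1 RPKM in GMUCT (log2 ratio 2.72, limma adjusted p = 0.0038). The insertion copies of these complexes differed from the nuclear-encoded subunits in RNA-seq level too, with medians of 1.94 RPKM for complex I and 16.6 RPKM for the ATP synthase in replicate 1, against 53.4 and 117.1 RPKM. The part of level in the difference between the lists was not tested. In bulk samples, fewer cells of a type and less RNA per cell cannot be told apart.

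**Figure D4:**
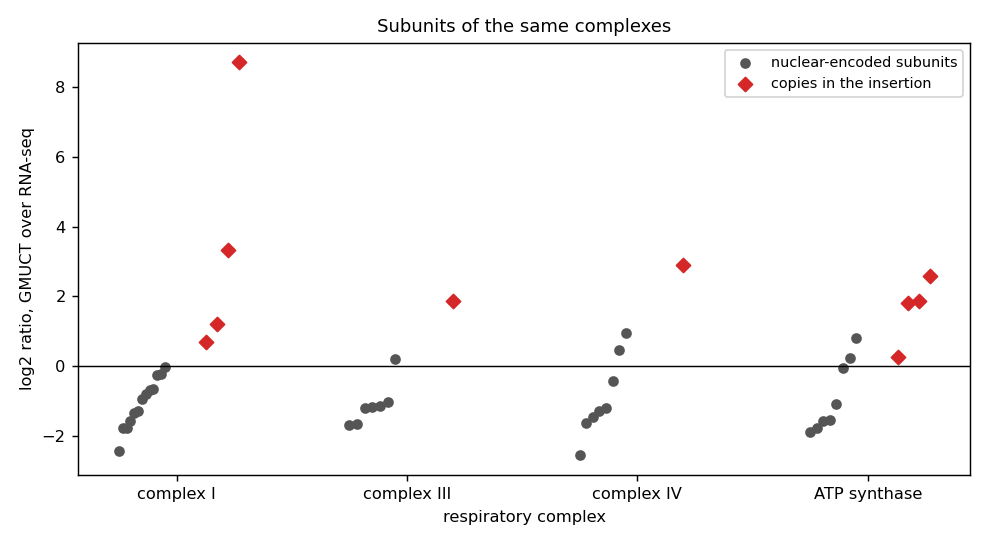
Log2 ratio of GMUCT over RNA-seq on the y axis for nuclear-encoded genes of the list, COX17 included, as circles and for copies in the insertion as diamonds, by respiratory complex. All 10 copies lie above 0, from 0.25 for atp9 to 8.71 for nad3. Of all 46 nuclear-encoded genes of the list 30 were called lower, against 36.9% of all tested genes.

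The RNA-seq libraries themselves were far apart for some insertion genes. Of the 52 tested members 5 were at least 2-fold apart between replicates 1 and 2, where 0.331% of all tested genes were, and the SD of the log2 difference between the replicates was 0.53 over the members and 0.22 over all tested genes. The nad3 copy AT2G07751, the cox3 copy AT2G07687 and AT2G07669 (0.50 and 0 RPKM) were higher in replicate 1. The nad4 copy AT2G07718 and AT2G07684 were higher in replicate 2. Some of these values rest on few reads. AT2G07687 stood for about 38.9 and 5.99 reads in replicates 1 and 2 and AT2G07669 for about 6.93 and 0, while AT2G07718 stood for about 122.5 and 172.5. Replicate 2 had about 8600000 reads and replicate 1 about 18000000, and the part of depth in these differences was not tested. Of the 52 members 19, AT2G07669 among them, had an RNA-seq mean below 1 RPKM and were tested through GMUCT. Over all 20214 tested genes 1704 had such a mean, and the part of low levels was not tested either.

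**Figure D5:**
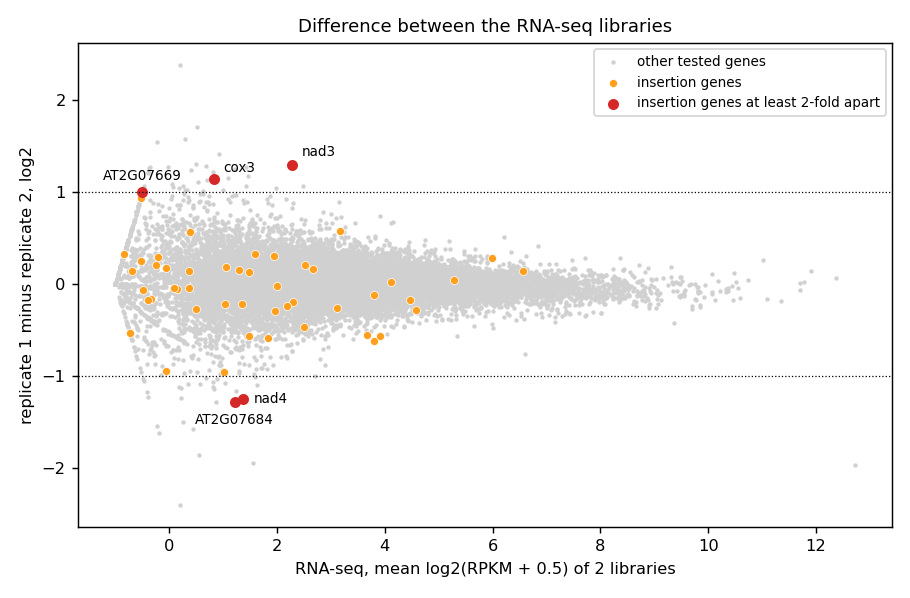
Log2 difference of RNA-seq replicate 1 minus replicate 2 on the y axis against the mean log2(RPKM + 0.5) of both, with the 52 tested insertion genes in orange or red, other tested genes in grey and dotted lines at 2-fold. The 5 red points are at least 2-fold apart, 3 higher in replicate 1 and 2 higher in replicate 2.

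As a share of all estimated reads, the 64 genes took 0.0566% and 0.0606% in RNA-seq and 0.206% in GMUCT. AT2G07751 alone took 42.5% of the members' GMUCT reads, and 0.558% and 0.191% of their RNA-seq reads. Without it the share in GMUCT was 0.118%, still above both RNA-seq libraries. The genes without a mitochondrial match took 0.00658%, 0.00624% and 0.00596% in RNA-seq 1, RNA-seq 2 and GMUCT, which differ little.

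The tables stood for about 18000000, 8600000 and 19000000 reads in RNA-seq 1, RNA-seq 2 and GMUCT, as estimated from the steps of 1 read in low values. The floral regulators AP1, AP3, PI, AG and SEP3 had 14.3 to 141.2 RPKM in RNA-seq and LFY 1.00 and 1.63 RPKM. In GMUCT they had 32.15, 166.39, 96.72, 7.54 and 50.49 RPKM in that order, and LFY 0.67 RPKM. The late pollen genes VGD1, AGP23 and RALF4 had 36.5 to 369.1 RPKM in RNA-seq and 3.70 to 37.7 RPKM in GMUCT, and the root gene PYK10 had 0.24 to 0.50 RPKM in all libraries. The part of late pollen in the levels of the insertion genes was not tested.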

How the data were processed

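RNA was measured in 2 RNA-seq libraries and 1 GMUCT library. The authors deposited 1 table of gene identifiers and RPKM values per library, with 2 decimals. Adapters were trimmed with cutadapt 1.4.2 and reads aligned with STAR 2.4.0 to TAIR10, per the submitters' processing notes. The sources used here name no counter, gene lengths or rule for reads that fit several places.

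Values were analysed as log2(RPKM + 0.5), with missing genes as 0. limma 3.58.1 (R 4.3.3; eBayes with trend) compared GMUCT with RNA-seq over all genes with a mean over the assays of at least 1 RPKM, two-sided, with Benjamini-Hochberg adjustment at 0.05. The procedure was tested on simulated data in which GMUCT had the same spread as the RNA-seq libraries. The simulation therefore could not check that assumption. Exon lengths, GC and products came from the RefSeq annotation of TAIR10.1, which held 26459 of the 26810 identifiers. Because the files name TAIR10, coordinates are not given. Exons were matched to the organelle genomes with BLAST 2.17.0 and by stretches of 50 nt within an exon block. Reads were estimated as RPKM times exon length times depth. Of the low values, 63.5%, 63.1% and 68.0% fell within 0.1 of a whole read in RNA-seq 1, RNA-seq 2 and GMUCT, so depth is approximate. Members with at least 5 RPKM in any library are named, up to 30, as are the extremes of the ratio, members without a match that reach 1 RPKM and the neighbouring genes, and others to complete a product group. The members and lists were chosen with earlier results of these data known. Alternatives changed the filter, pseudocount, centring, length trend, limma's trend, fold, libraries and members.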

Additional observations from a re-analysis of the deposited data

How the results depend on the processing

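The 3 lower calls and 23 of the 41 higher calls were kept under all 6 alternatives that tested every one of these genes in limma. These 6 leave out the filters at 5 RPKM and on the RNA-seq mean alone. The 23 include genes that passed the main filter only through their GMUCT value, such as AT2G07772 and AT2G07825. Of all tested genes with an RNA-seq mean below 1 RPKM, 89.5% were called higher in the main fit. Over the same 52 genes, 29 were called higher with the length trend removed, 34 with a pseudocount of 0.1, 38 by limma without a trend, 43 with a pseudocount of 1 and 47 with libraries centred. Without a filter 31 of 64 were, with the filter at 5 RPKM 21 of 28 and with the filter on the RNA-seq mean alone 27 of 35. The filter at 5 RPKM was also set on the mean over the assays, so it too let genes in through their GMUCT value. Among its 28 genes were AT2G07772 and AT2G07825, with RNA-seq means of 0.37 and 0.565 RPKM. The count of lower calls was 6 with the length trend removed and 5 with the filter on the RNA-seq mean. By the 2-fold size rule, 20 of 28 genes were higher with the filter at 5 RPKM and 22 of 35 with the filter on the RNA-seq mean. At 4-fold 19 were higher and 1 lower. Shares over all genes are given only for the main setting and, for limma calls, the filter on the RNA-seq mean (30.4% higher and 44.0% lower). For the other settings no such share is given, so their counts describe the members alone. The median log2 ratio, 1.78, was 1.52 without a filter, 1.87 with the filter at 5 RPKM, 1.51 with the filter on the RNA-seq mean, 2.02 and 1.49 with pseudocounts of 0.1 and 1, 1.90 with libraries centred on their medians, 1.25 with the length trend removed and 1.81 over the matching genes alone. Leaving out each RNA-seq library gave 1.70 to 1.71. A fit without 1 RNA-seq library has no residual degrees of freedom, so it gave values and no test.

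With the length trend removed, AT2G07671, AT2G07701, AT2G07705 and AT2G07713 turned to log2 ratios of -0.50, -0.70, -0.52 and -0.21, and AT2G07671 and AT2G07701 were then called lower (limma adjusted p = 0.011 and 0.029). The count of genes apart between RNA-seq replicates, 5 at 2-fold, was 10 at 1.5-fold, 10 with a pseudocount of 0.1 and 3 with a pseudocount of 1. The share of all tested genes, 0.331%, is given only for the 2-fold count of the main setting. The matching genes alone took 0.05005%, 0.0544% and 0.200% of the reads of RNA-seq 1, RNA-seq 2 and GMUCT, the other 4 genes 0.00658%, 0.00624% and 0.00596%, and the share in GMUCT without AT2G07751 was 0.118%. The causes of these changes were not tested. No paired analysis was possible because the GMUCT library carries only 1 replicate number, so the groups share fewer than 2. Levels of genes with a few estimated reads in RNA-seq are imprecise, and no replicate of GMUCT bounds its error.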
